A study of Canis lupus familiaris with 29 samples.

Results

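The proteasome genes of dog kidney cells were followed in 29 Affymetrix canine arrays. The genes were chosen by symbol, as those with a probe set annotated to a single gene whose name begins with PSMA to PSMG and a digit, and 44 of the 15115 genes with such a probe set matched. A probe set was tested where it reached a log2 level of 5 in at least 3 of the 29 arrays, and each gene is given by its tested probe set with the highest mean. Of the 44 genes, 42 belong to the proteasome, and 40 of them were tested. PSMC3IP and PSME3IP1 carry the name of a subunit that they bind and are described apart. PSMA8 and PSMB11, the testis and thymus forms of core subunits, were not tested, with highest log2 levels in any array of 2.92 and 1.71. PSMB8 lies just inside the filter, since 4 arrays reached log2 5, all of them 3D controls, and every mean of PSMB8 outside that group was dim, which here means below log2 5. The next lowest member, PSMF1, passed in all 29 arrays. Of the 48 family genes listed for this work, PSMB7, PSMC1, PSMD1, PSMD4, PSMD5 and PSMG4 (6 genes) had no probe set annotated to them alone and are not analysed here.

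The cells were MDCK, an established line of dog kidney epithelial cells, of the strain called type II in the series title, grown flat (2D) or in collagen (3D). Each culture had 4 arrays of untreated control cells and 4 arrays of cells treated with HGF, hepatocyte growth factor, which acts through the receptor MET. HGF was also given together with PD-98059 (4 arrays in 2D, 3 in 3D) or with U0126 (3 arrays in each culture), which both inhibit MEK, the kinase that activates ERK. Neither inhibitor was given without HGF. The sources used here give no doses or times and do not say whether arrays came from separate cultures, so p-values measure only how these arrays spread, and part of that spread may be technical.

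The proteasome is the protease that degrades proteins tagged with ubiquitin. Its core is a barrel of alpha rings, which gate the entry, and beta rings, which hold the proteolytic sites of PSMB5, PSMB6 and PSMB7. The cap that docks on the barrel has a base, where ATPases (PSMC genes) unfold the substrate, and a lid, where PSMD14 removes the ubiquitin chain. Interferon-gamma induces PSMB8, PSMB9 and PSMB10, which take the places of PSMB5, PSMB6 and PSMB7 to form the immunoproteasome, and it also induces the activator subunits PSME1 and PSME2. These forms favour peptides that are loaded on MHC class I molecules. PSME3 forms a nuclear activator that works without ubiquitin, and PSME4 is a further nuclear activator.

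Of the epithelial markers listed, 7 of the 9 with a probe set reached log2 5, but CDH1 (E-cadherin) and PAX8 did not, with highest levels of 3.84 and 3.58. None of the 6 fibroblast and 4 endothelial markers reached log2 5. Of the 5 leukocyte markers only CD68, a lysosomal protein of macrophages that other cells can also make, did so, with a mean log2 level of 5.77 ± 0.92 (SD, n = 4) in 2D HGF and dim means in the other groups, while PTPRC, CD14, CD3E and LAPTM5 stayed at or below 3.53 in every array. The summed levels of the lists, as log2 group means, ran from 5.25 to 6.48 for leukocytes, 5.57 to 5.74 for fibroblasts, 5.56 to 5.69 for endothelium and 15.9 to 16.5 for the epithelium. The 3D HGF arrays stood apart from each other most, the correlation of their least alike pair being 0.964, while in the other groups it was 0.987 to 0.993. An index of RNA quality, taken from control probe sets as the log2 signal at the 3′ end minus that nearer the 5′ end, was 1.44 in 2D control and 0.838 in 2D HGF, and 1.93 in 3D control and 1.68 in 3D HGF (means of 4 arrays), with an SD of 0.583 in 3D HGF. The difference in 2D had an exact two-sided permutation p of 0.0286, the smallest that 4 arrays against 4 allow, and 0.0857 adjusted over 9 comparisons.

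The 40 members did not move as 1 block. Levels are log2 values as deposited, so that 1 unit is a doubling, and they compare groups for a gene but not genes with each other. The mean of 3D HGF was the highest of the 8 groups for 15 members, and that of 2D HGF was the lowest for 19. The same was not counted over all tested probe sets, so these counts do not set the members apart from other genes. Between their highest and lowest group means PSMB9 spanned 2.71 and PSMB10 1.24. PSMB8 spanned 3.06, but it passed the filter through 3D control alone, so its span is only a description. The median span was 1.40 for the 4 activators, 0.80 for the 7 core alpha subunits, 0.80 for the 6 core beta subunits, 0.74 for the 6 base subunits and 0.62 for the 8 lid subunits. PSME3 spanned 2.04 and PSME2 1.86, after PSMB8 and PSMB9 the widest of the 40, and PSMA2, PSMC4, PSMD12 and PSMD7 spanned 1.40 to 1.49. PSMD6, a lid subunit, had the narrowest span of all, 0.30, which is a 1.23-fold difference between its extreme groups.

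**Figure D1:**
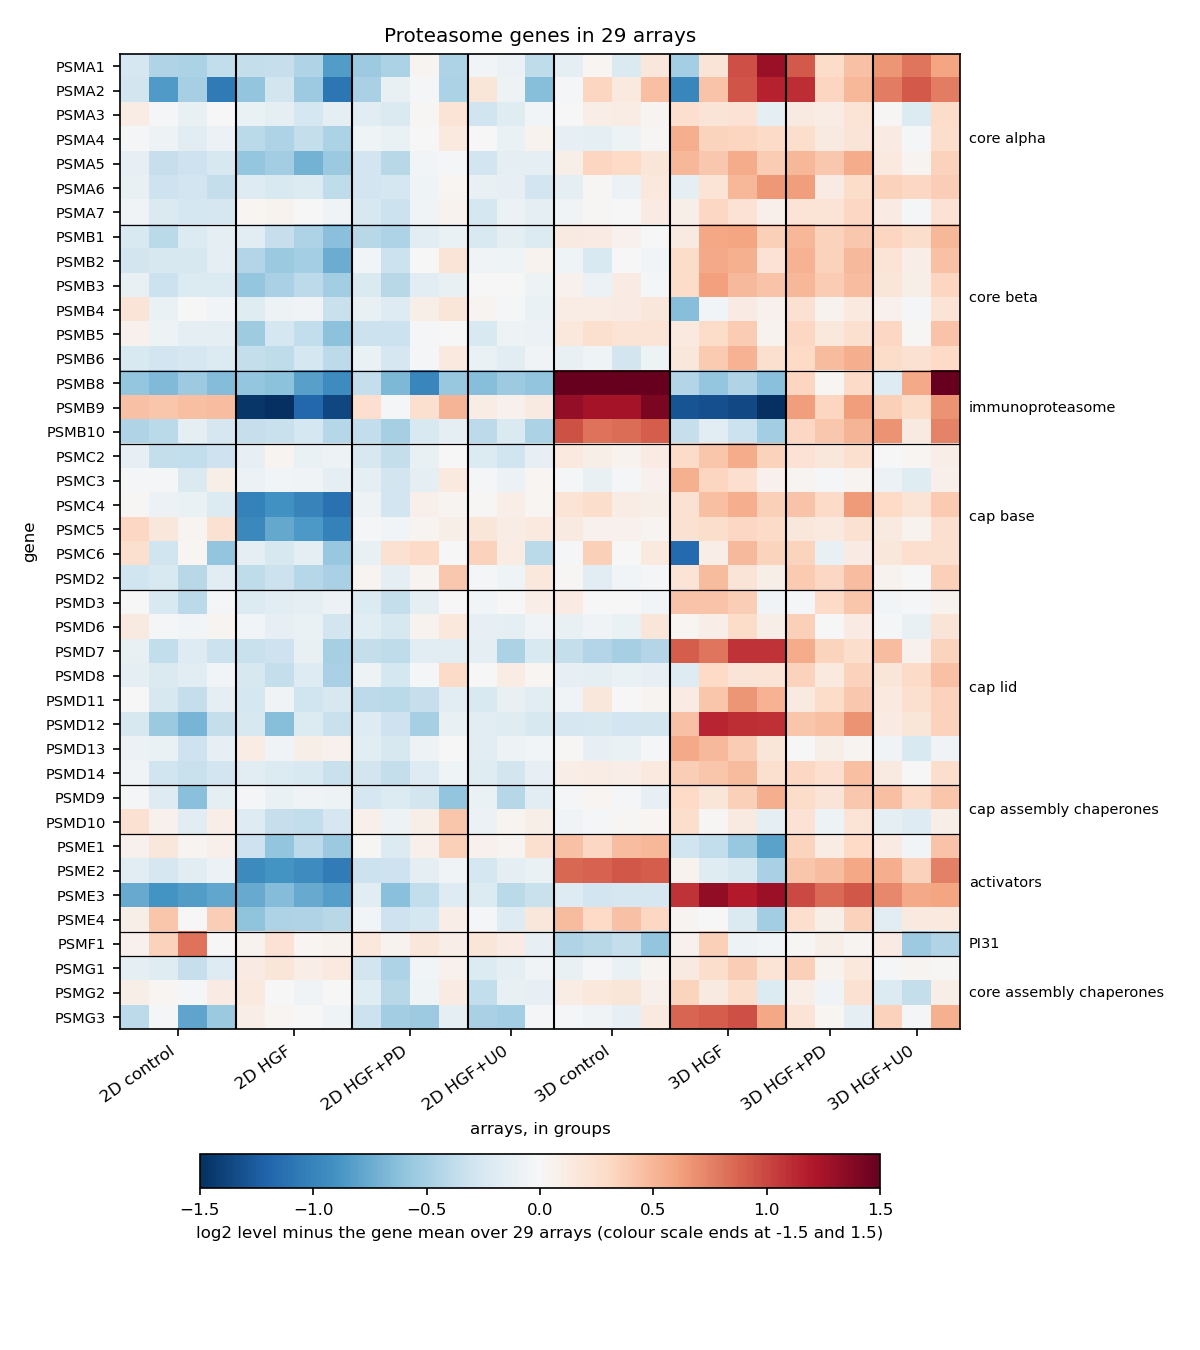
Log2 level of each of the 40 tested proteasome genes (rows, in blocks by their place in the complex) in each of the 29 arrays (columns, in 8 groups), minus the gene's mean over all arrays; PD stands for PD-98059 and U0 for U0126. PSMB9 and PSMB10 are high in 3D control, as is PSMB8, which passed the filter through that group alone. PSMC4 and PSMC5 are low in 2D HGF, and PSMD7, PSMD12 and PSME3 are high in 3D HGF.

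PSMB9 and PSMB10 of the immunoproteasome were highest in untreated 3D cells. PSMB8 was too, but it passed the filter through that group alone. PSMB9 had log2 levels of 12.51, 12.44, 12.44 and 12.60 in 3D control and 11.63, 11.60, 11.64 and 11.65 in 2D control. With HGF it was at 9.89, 9.87, 9.84 and 9.54 in 3D and at 9.73, 9.65, 10.02 and 9.83 in 2D. The HGF arrays of both cultures overlapped, and all of them lay more than 1 unit below every control array. With PD-98059 beside HGF, PSMB9 was at 11.82, 11.51 and 11.81 in 3D and at 11.44, 11.16, 11.43 and 11.70 in 2D. With U0126 it was at 11.55, 11.46 and 11.87 in 3D and at 11.30, 11.26 and 11.32 in 2D. Every inhibitor array was above every HGF array of its culture, and in 3D every one was below the controls.

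PSMB10 showed the 3D part of that pattern alone. It had log2 levels of 10.60, 10.45, 10.47 and 10.55 in 3D control, and 9.29, 9.48, 9.32 and 9.11 in 3D HGF. The levels with HGF were 9.95, 10.04 and 10.15 when PD-98059 was present and 10.31, 9.77 and 10.38 when U0126 was present. All 15 arrays in 2D lay between 9.14 and 9.49, within the range of 3D HGF apart from the upper end. PSMB8 was at 6.28, 5.05, 6.23 and 5.52 in 3D control and at 3.01, 2.87, 2.99 and 2.83 in 3D HGF. In 3D it reached 3.77, 3.47 and 3.73 with PD-98059 and 3.25, 4.02 and 4.98 with U0126, and in 2D it stayed between 2.47 and 3.09 in all groups. PSMB8 was thus measured above log2 5 in 3D control alone, and its differences against other groups rest on a dim level.

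PSME1 and PSME2, which join into the interferon-induced activator ring, were also highest in 3D control. PSME2 had log2 levels of 13.14, 13.16, 13.21 and 13.18 there, and 12.33, 12.10, 12.04 and 11.79 in 3D HGF. In 2D it was at 12.12, 12.02, 12.12 and 12.20 in control and at 11.33, 11.38, 11.33 and 11.23 with HGF. Control and HGF arrays did not overlap in either culture, and the 3D HGF arrays reached the level of the 2D controls. PSME1 was at 14.10, 13.98, 14.12 and 14.16 in 3D control and at 13.37, 13.29, 13.10 and 12.86 in 3D HGF. In 2D, PSME1 was at 13.73, 13.84, 13.71 and 13.74 in control and at 13.35, 13.07, 13.27 and 13.11 with HGF, again without overlap.

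**Figure D2:**
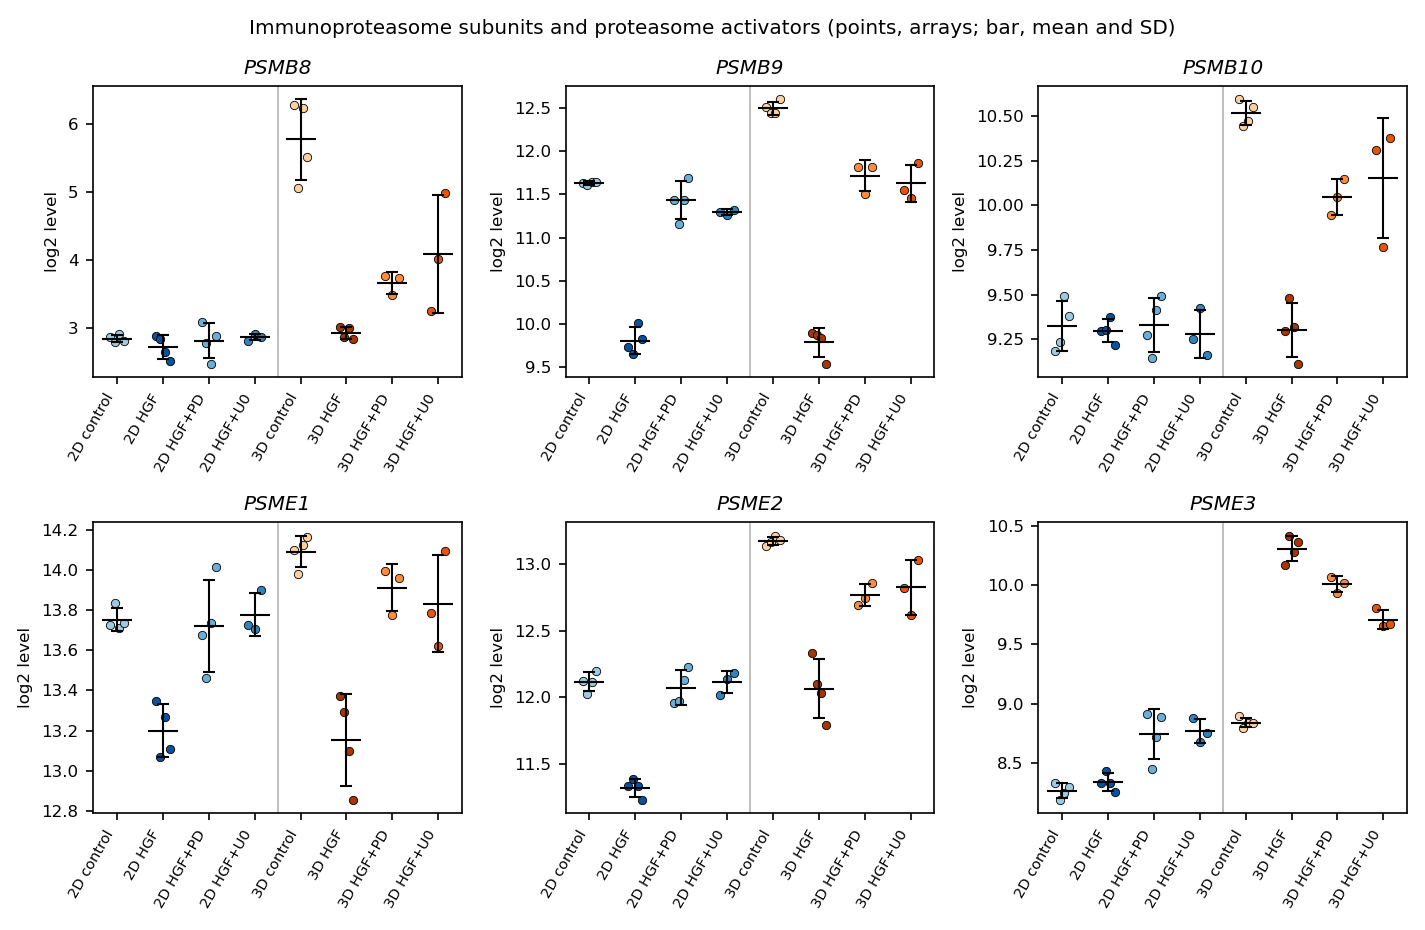
Log2 level (y axis, a scale of its own in each panel) of 6 genes in the 8 groups (x axis), with a point for each array and a bar for the mean and SD; PD stands for PD-98059 and U0 for U0126. The 3D control arrays are the highest for PSMB9, PSMB10 and PSME2, while the 3D HGF arrays are the highest for PSME3, at 10.17 to 10.41. They are also the highest in 3D control for PSMB8, where the filter fixed this.

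With HGF in 3D the nuclear activator PSME3 went the other way from PSME1 and PSME2. Its log2 levels were 8.33, 8.19, 8.24 and 8.30 in 2D control and 8.33, 8.44, 8.33 and 8.25 in 2D HGF, which overlap. In 3D it was at 8.89, 8.80, 8.83 and 8.84 in control and at 10.17, 10.41, 10.28 and 10.37 with HGF, with all HGF arrays more than 1 unit above the controls. PD-98059 arrays in 3D were at 10.07, 9.93 and 10.02 and U0126 arrays at 9.80, 9.65 and 9.67, between the controls and HGF.

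In the cap, the ATPases PSMC4 and PSMC5 stood apart in 2D HGF. The ATPase PSMC5 had log2 levels of 11.15, 11.35, 11.26 and 11.11 in 2D HGF, against 12.43, 12.29, 12.16 and 12.35 in 2D control. In 3D, PSMC5 was at 12.25, 12.18, 12.18 and 12.16 in control and at 12.35, 12.38, 12.43 and 12.41 with HGF. PSMC4, another ATPase of the base, was at 11.34, 11.45, 11.35 and 11.23 in 2D HGF against 12.37, 12.27, 12.26 and 12.15 in 2D control. The 4 arrays of 2D HGF were therefore the lowest of all 29 for both ATPases. In 3D, PSMC4 was at 12.56, 12.62, 12.46 and 12.44 in control and at 12.59, 12.80, 12.90 and 12.71 with HGF, with overlap.

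The lid subunit PSMD7, the partner of PSMD14, was at log2 levels of 12.47, 12.36, 12.65 and 12.64 in 3D HGF and at 11.21, 11.12, 11.06 and 11.12 in 3D control. In 2D it was at 11.45, 11.19, 11.37 and 11.23 in control and 11.22, 11.25, 11.44 and 11.06 with HGF. PSMD12, a scaffold subunit of the lid, was at 10.71, 11.41, 11.37 and 11.37 in 3D HGF and between 9.98 and 10.03 in the 4 arrays of 3D control. In 2D, PSMD12 lay between 9.57 and 10.16 in all 15 arrays. For both genes the 3D HGF arrays were above every control array of either culture. PSMD14, the deubiquitinase itself, differed less, with 13.75, 13.79, 13.86 and 13.62 in 3D HGF and 13.48, 13.49, 13.48 and 13.52 in 3D control. Its 2D control arrays were at 13.33, 13.08, 13.05 and 13.10 and its 2D HGF arrays at 13.21, 13.18, 13.15 and 13.04, which overlap.

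**Figure D3:**
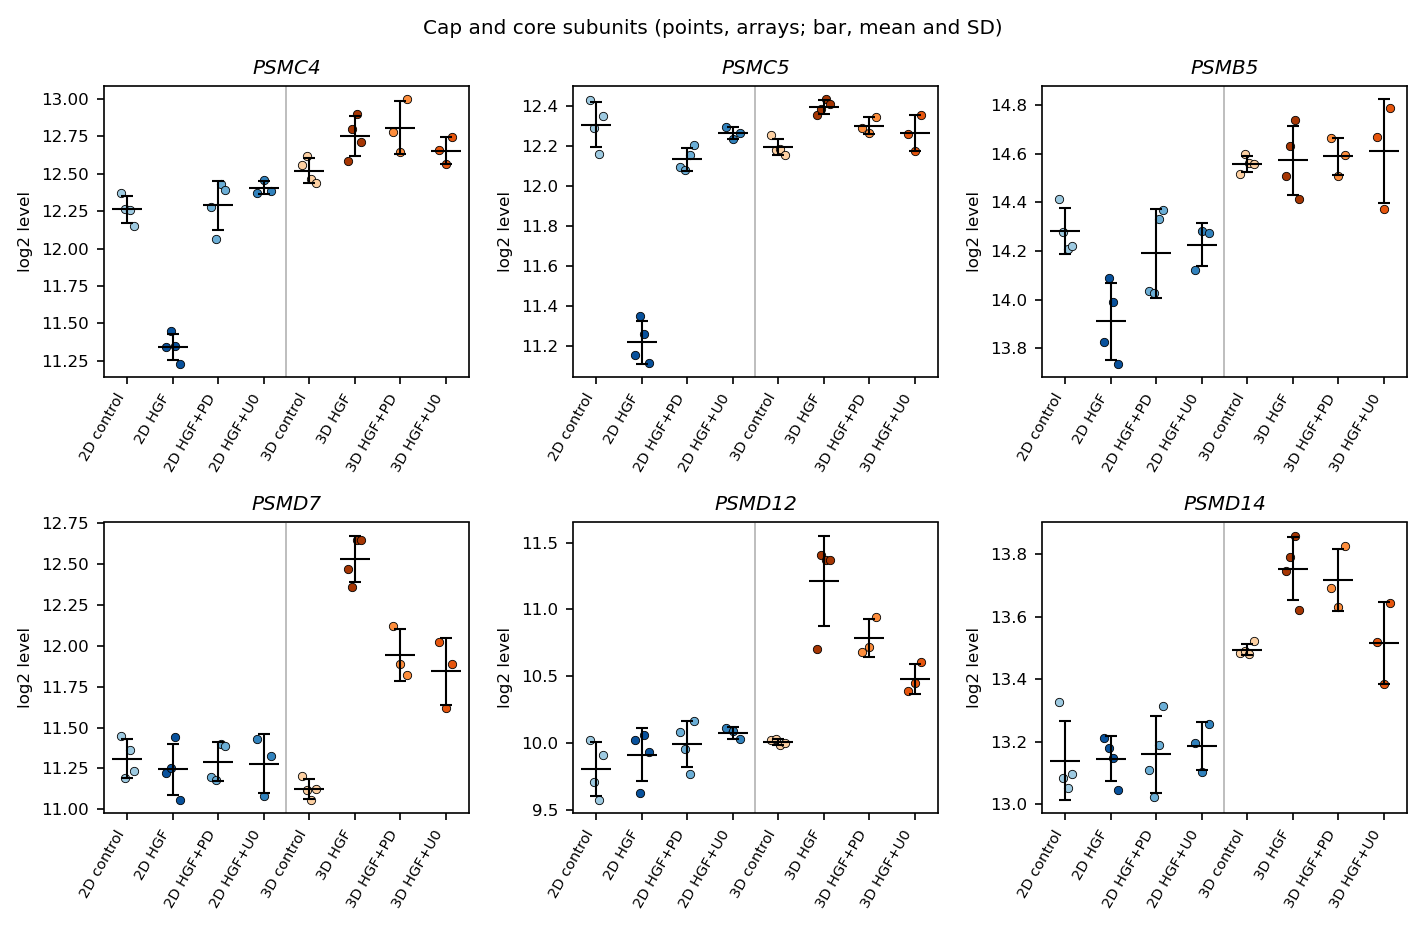
Log2 level (y axis, a scale of its own in each panel) of 5 cap subunits and the core subunit PSMB5 in the 8 groups (x axis), with a point for each array and a bar for the mean and SD; PD stands for PD-98059 and U0 for U0126. PSMC4 and PSMC5 are lowest in 2D HGF, and PSMD7 and PSMD12 are highest in 3D HGF, apart from 1 array of PSMD12 at 10.71.

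Among the core subunits that the immunoproteasome forms replace, PSMB5 had log2 levels of 14.42, 14.28, 14.21 and 14.22 in 2D control and 13.83, 14.09, 13.99 and 13.74 in 2D HGF. In 3D, PSMB5 was at 14.52, 14.60, 14.56 and 14.56 in control and 14.51, 14.63, 14.74 and 14.41 with HGF, so that the arrays overlapped in 3D but not in 2D. PSMB6 was at 12.37, 12.41, 12.20 and 12.40 in 3D control and at 12.65, 12.87, 12.99 and 12.72 in 3D HGF, without overlap. In 2D, PSMB6 was at 12.24, 12.19, 12.22 and 12.27 in control and at 12.12, 12.10, 12.21 and 12.08 with HGF, where 1 HGF array lay among the controls. The alpha subunit PSMA3 lay between 14.07 and 14.64 in all 29 arrays, the narrowest range of the 40 members. Of the assembly chaperones of the core, PSMG3 was at 7.23, 7.27, 7.33 and 6.94 in 3D HGF and between 6.23 and 6.503 in the 4 arrays of 3D control, without overlap.

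HGF in 3D culture went with higher levels of many constitutive proteasome genes and lower levels of PSMB9, PSMB10, PSME1 and PSME2. Of the 40 members 24 rose and 6 fell, where 29.4% of all 16571 tested probe sets rose and 32.6% fell. The median difference of the members was 0.27 on the log2 scale, against -0.0025 over all tested probe sets. The members that fell were PSMB8, PSMB9, PSMB10, PSME1, PSME2 and PSME4. In the cap 12 of 14 subunits rose and none fell (median 0.28), and in the constitutive core 7 of 13 rose and none fell (median 0.32). PSMB8 passed the filter through 3D control alone, so any comparison with that group had to show a difference. Its values are a description, and it stands among the 40 members and among the called members of the counts for 3D but supports none of them. In RNA from whole cultures, fewer cells of a kind and less RNA per cell cannot be told apart.

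PSMB9 and PSMB10 of the immunoproteasome had the largest falls by HGF in 3D beside PSMB8. Differences are given on the log2 scale with the standard error (SE) from limma. PSMB9 fell by 2.71 ± 0.11 (6.56-fold, adjusted p = 3.06e-17), and PSMB10 fell by 1.22 ± 0.11 (2.32-fold, adjusted p = 4.81e-10). PSME2 fell by 1.11 ± 0.09 and PSME1 fell by 0.94 ± 0.11, with adjusted p of 7.07e-11 and 5.61e-08. All 4 of these interferon-inducible members fell. PSMB8 had means of 5.77 in 3D control and a dim 2.92 in 3D HGF, a difference that the filter fixed.

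PSME3, PSMD7 and PSMD12 had the largest rises by HGF in 3D. PSME3 rose by 1.47 ± 0.09 (2.76-fold, adjusted p = 9.53e-14), PSMD7 by 1.40 ± 0.10 (2.65-fold, adjusted p = 4.94e-12) and PSMD12 by 1.21 ± 0.13 (2.31-fold, adjusted p = 9.58e-09). The other 10 cap subunits that rose did so by 0.20 to 0.46, PSMC4 by 0.23 ± 0.08 and PSMD14 by 0.26 ± 0.07 among them. PSMF1, which codes for the core-binding protein PI31, rose by 0.53 ± 0.15, and the assembly chaperone PSMG1 by 0.29 ± 0.09. The PSMF1 rise was from a mean log2 level of 5.17 to 5.70, close to the filter level of 5. PSMB6 rose by 0.46 ± 0.08, whereas PSMB5 at 0.01 ± 0.09 and PSMA3 at 0.07 ± 0.10 did not pass (adjusted p = 0.912 and 0.565). PSME4 fell by 0.56 ± 0.12 on its brightest probe set, but another of its probe sets rose by 0.33 ± 0.10 and the mean of its probe sets gave 0.0155, so its direction depends on the probe set. Without 3D HGF replicates 1 and 4, chosen after the data were seen, 26 members rose and 6 fell. PSMC4 did not pass without 3D control replicate 3 or 4, without 3D HGF replicate 3, or when its probe sets were averaged. The other genes named here kept their calls with each array left out.

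In 2D culture with HGF, PSMB9, PSMC5, PSMC4, PSME2 and PSME1 were lower than in control. Of the 40 members 5 rose and 12 fell, where 26.3% of all tested probe sets rose and 29.2% fell, and the median difference was -0.12 against -0.03 over all tested probe sets. The share of members that fell, 30.0%, was close to that of all probe sets. In the constitutive core 5 of 13 fell and 1 rose, and in the cap 2 of 14 fell and 2 rose. PSMB9 fell by 1.82 ± 0.11 (3.54-fold, adjusted p = 8.59e-14), PSMC5 by 1.09 ± 0.06 (2.13-fold, adjusted p = 4.27e-14) and PSMC4 by 0.92 ± 0.08 (1.89-fold, adjusted p = 7.26e-10). PSME2 fell by 0.80 ± 0.09, PSME4 fell by 0.70 ± 0.12, PSME1 fell by 0.55 ± 0.11 and PSMB5 fell by 0.37 ± 0.09.

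The largest rises in 2D were those of the core assembly chaperones PSMG3 (0.46 ± 0.15) and PSMG1 (0.35 ± 0.09) and of the ATPase PSMC2 (0.22 ± 0.07). PSMB10 at -0.03 ± 0.11, PSMB8 at -0.13 ± 0.25 and dim in both groups, PSMB6 at -0.11 ± 0.08, PSMA3 at -0.15 ± 0.10, PSMD14 at 0.01 ± 0.07, PSME3 at 0.07 ± 0.09 and PSMF1 at -0.23 ± 0.15 did not pass. The RNA-quality index moved with HGF in 2D, as given above, and with it as a covariate 3 members rose, PSMC2 no longer among them, and 16 fell. The count of rises was 2 without 2D control replicate 3, where PSMG3 did not pass, and 3 without 2D HGF replicate 1. PSME4 did not pass when its probe sets were averaged.

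**Figure D4:**
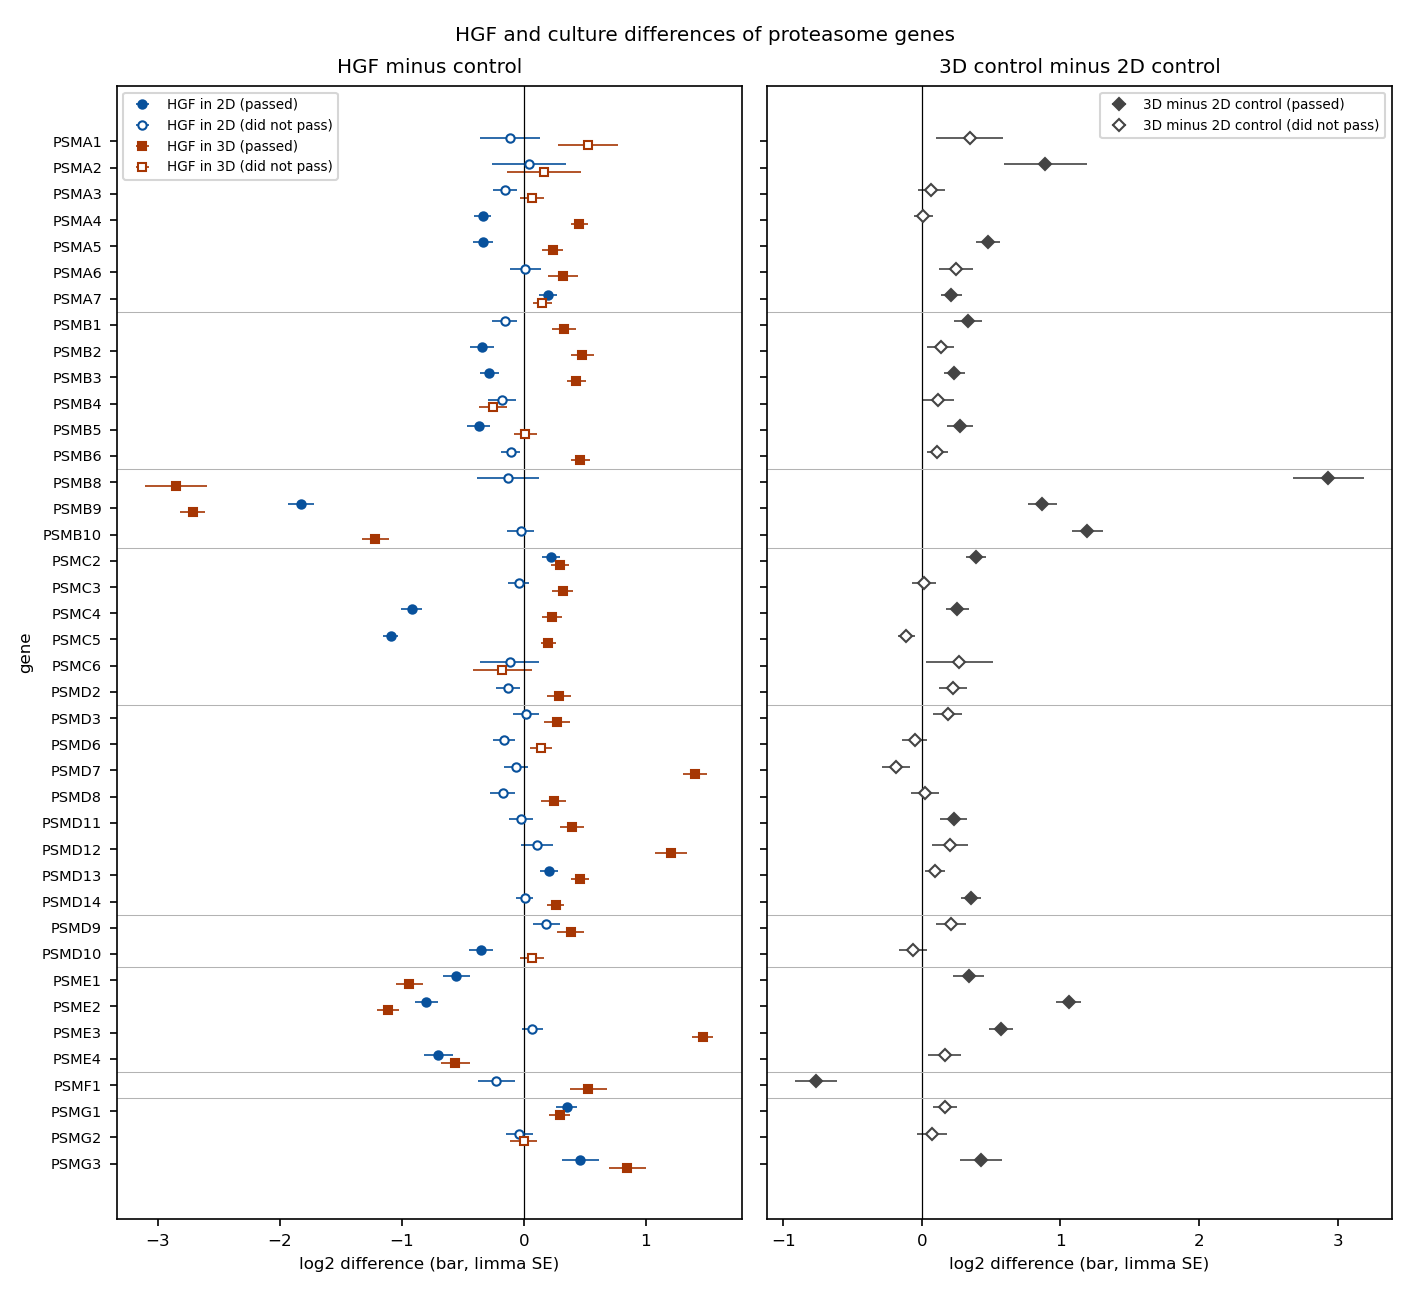
Log2 difference (x axis) of each of the 40 members (y axis, in blocks by their place in the complex) between HGF and control in 2D and in 3D (left) and between 3D and 2D control (right), with the limma SE as a bar and filled symbols for genes that passed an adjusted p of 0.05. PSMC4 and PSMC5 lie near -1 in 2D and above 0 in 3D, and PSME3, PSMD7 and PSMD12 lie above 1 in 3D and near 0 in 2D.

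The HGF difference itself differed between the cultures for 25 of the 40 members. The difference in 3D minus that in 2D was above 0 for 20 members and below 0 for 5 that passed, where 22% of all tested probe sets passed above 0 and 26.3% below, and the median was 0.33 against -0.02 over all. PSMD7 (1.47 ± 0.14), PSME3 (1.40 ± 0.12) and PSMC5 (1.29 ± 0.09) had the largest positive values, with adjusted p of 4.89e-09, 7.68e-10 and 6.80e-12. PSMD7 and PSME3 rose in 3D and did not pass in 2D, whereas PSMC5 fell in 2D and rose slightly in 3D. PSMC4 had 1.15 ± 0.12, PSMF1 0.75 ± 0.21, PSMB6 0.57 ± 0.11, PSMB5 0.38 ± 0.13 and PSMD14 0.25 ± 0.10.

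The negative values were those of PSMB10 (-1.19 ± 0.16), PSMB9 (-0.89 ± 0.15), PSME1 (-0.38 ± 0.16) and PSME2 (-0.31 ± 0.13), and of PSMB8 (-2.72), where the filter fixed the direction. PSMB9 had like means with HGF in 3D and 2D, 9.79 and 9.81, and unlike means in the controls, 12.50 and 11.63. PSME4 at 0.14 ± 0.17, PSMA3 at 0.22 ± 0.14 and PSMG1 at -0.06 ± 0.12 did not pass. PSME1 and PSME2 passed narrowly (adjusted p = 0.0464 and 0.0472), and the count below 0 was 3 in each of 9 fits that left out 1 array: replicate 1, 3 or 4 of 3D control, 3 or 4 of 3D HGF, 1 or 3 of 2D control, and 1 or 3 of 2D HGF. PSME2 alone was lost without replicate 2 of any of these groups and PSME1 alone without 2D control replicate 4. PSMB5 did not pass without 2D HGF replicate 4, and PSMF1 did not pass when its probe sets were averaged. PSMD14 (adjusted p = 0.0452) did not pass without any 1 array of 3D control, without replicate 1, 2 or 3 of 3D HGF, without 2D control replicate 1, or without replicate 2, 3 or 4 of 2D HGF.

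Untreated cells in collagen had more PSMB9, PSMB10, PSME1 and PSME2 than untreated flat cells. Of the 40 members 17 were higher in 3D control and 1 was lower, where 23.6% of all tested probe sets were higher and 28.7% lower, and the median was 0.22 against -0.03 over all. Leaving PSMB8 aside, all 4 interferon-inducible members were higher, PSMB10 by 1.19 ± 0.11 (2.29-fold, adjusted p = 1.62e-09), PSME2 by 1.06 ± 0.09 (2.09-fold, adjusted p = 4.28e-10), PSMB9 by 0.87 ± 0.11 (1.83-fold, adjusted p = 1.63e-07) and PSME1 by 0.34 ± 0.11. PSMB8 had means of 5.77 in 3D control and a dim 2.84 in 2D control.

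Of the other members, 12 of 35 were higher in 3D control, by at most the 0.89 ± 0.30 of the core alpha subunit PSMA2, a call that was lost without 2D control replicate 4. PSME3 was higher by 0.57 ± 0.09, PSMD14 by 0.36 ± 0.07, PSMB5 by 0.28 ± 0.09 and PSMC4 by 0.26 ± 0.08, but PSMB5 and PSMC4 did not pass when their probe sets were averaged. PSMF1 was the member that was lower, at -0.76 ± 0.15 (adjusted p = 0.000144). Its group means ran only from 5.17 in 3D control to 5.94 in 2D control, close to the filter level of log2 5. PSMA3 (0.07 ± 0.10), PSMB6 (0.11 ± 0.08), PSME4 (0.17 ± 0.12) and PSMG1 (0.17 ± 0.09) did not pass. The RNA-quality index was higher in 3D control by 0.493 (exact two-sided permutation p = 0.0286, adjusted 0.0857), and its part in these differences was not tested beyond a fit with it as a covariate, in which 19 members were higher and 1 lower and PSMB5 and PSME1 did not pass. Without 2D control replicate 3, 2 members were lower.

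In 3D both MEK inhibitors went with higher PSMB9 and PSMB10 than HGF alone. Both comparisons use the same 3D HGF arrays, which also enter the comparison of HGF with control, so opposite signs between them are not independent. With PD-98059, 6 members rose and 6 fell, where 26.6% of all tested probe sets rose and 15.4% fell. With U0126, 5 members rose and 14 fell, where 25.4% rose and 23.8% fell. PSMB9, PSMB10, PSME1 and PSME2 rose with each inhibitor.

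PSMB9 rose by 1.93 ± 0.11 with PD-98059 (3.81-fold, adjusted p = 3.85e-13) and by 1.84 ± 0.11 with U0126 (3.58-fold, adjusted p = 6.04e-13). PSMB10 rose by 0.75 ± 0.12 and 0.85 ± 0.12, PSME1 by 0.76 ± 0.12 and 0.68 ± 0.12, and PSME2 by 0.70 ± 0.10 and 0.76 ± 0.10, in the same order. PSMB8 had dim means of 2.92 with HGF alone, 3.66 with PD-98059 and 4.08 with U0126, and supports no count here. PSME4 rose by 0.41 ± 0.13 with PD-98059, and with U0126 it had 0.22 ± 0.13 and did not pass. The PSME4 rise with PD-98059 did not pass with its probe sets averaged, with median centring or with the compared groups alone. Nor did it pass without 3D HGF replicates 1 and 4 together.

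In 3D, PSMD7, PSMD12 and PSMD13 of the lid, the ATPase PSMC3, PSME3 and the chaperone PSMG3 fell with each inhibitor. The share of members that fell with PD-98059, 15%, was close to that of all probe sets. PSMG3 fell by 0.80 ± 0.16 with PD-98059 and by 0.55 ± 0.16 with U0126, PSMD7 fell by 0.59 ± 0.11 and 0.69 ± 0.11, and PSMD12 fell by 0.43 ± 0.14 and 0.73 ± 0.14. PSME3 fell by 0.30 ± 0.09 with PD-98059 and by 0.60 ± 0.09 with U0126. PSMD14 fell by 0.24 ± 0.08 and PSMG1 fell by 0.23 ± 0.09 with U0126, while with PD-98059 they had -0.04 ± 0.08 and -0.06 ± 0.09 and did not pass. PSMB5 (0.02 ± 0.10 and 0.04 ± 0.10), PSMB6 (0.11 ± 0.08 and -0.06 ± 0.08), PSMA3 (0.02 ± 0.10 and -0.10 ± 0.10), PSMC4 (0.06 ± 0.09 and -0.10 ± 0.09) and PSMF1 (-0.03 ± 0.16 and -0.37 ± 0.16) did not pass with either.

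Counts of falls in 3D depended on single arrays and on scaling. Without PD-98059 replicate 2 the falls with that inhibitor were 3, with PSME3, PSMC3 and PSMD12 no longer passing, and without U0126 replicate 2 the falls with that inhibitor were 6, with PSMD14, PSMG1, PSMG3 and the 3 core subunits that had fallen, PSMA4, PSMA5 and PSMB3, no longer passing. These core subunits, PSMD14, PSMG1 and the chaperone PSMG2 also did not pass with U0126 under quantile normalization. PSMA4, PSMA5, PSMD3, PSMD14 and PSMG1 did not pass with U0126 when their probe sets were averaged. PSMD12 also lost its call with PD-98059 without 3D HGF replicate 2 or PD-98059 replicate 1, and PSME4 without 3D HGF replicate 4 or PD-98059 replicate 3. With U0126, PSMG1 also did not pass without 3D HGF replicate 2 or 3 or without U0126 replicate 1 or 3. Median centring of each array moved the median of all tested probe sets by -0.131 for PD-98059 in 3D and by 0.1003 for HGF in 3D. With it all probe sets split into 3485 that rose and 3954 that fell with PD-98059, against 4408 and 2557 (3935 and 3589 with quantile normalization), and into 5875 and 4799 for HGF in 3D, against 4879 and 5404. Under centring, 4 members rose and 12 fell with PD-98059 in 3D.

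In 2D the inhibitors went with higher PSMB9, PSMC4 and PSMC5 than HGF alone. These comparisons share the 2D HGF arrays with each other and with the comparison of HGF with control. Their like or opposite signs are therefore not independent. With PD-98059, 16 members rose and 3 fell, where 27.6% of all tested probe sets rose and 24.9% fell. With U0126, 16 members rose and 1 fell, where 25.8% rose and 24.3% fell. PSMB9 rose by 1.62 ± 0.11 with PD-98059 and by 1.49 ± 0.11 with U0126 (3.08-fold and 2.80-fold, adjusted p = 9.69e-13 and 3.00e-11). PSMC4 rose by 0.95 ± 0.08 and 1.06 ± 0.09 and PSMC5 by 0.92 ± 0.06 and 1.05 ± 0.07, so that with inhibitor these ATPases lay near their 2D control means of 12.26 and 12.31.

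PSME2 rose by 0.75 ± 0.09 with PD-98059 and by 0.80 ± 0.10 with U0126 in 2D, PSME1 by 0.52 ± 0.11 and 0.58 ± 0.12, and PSME3 by 0.41 ± 0.09 and 0.43 ± 0.09. PSMB5 rose by 0.28 ± 0.09 and 0.32 ± 0.10, PSMB6 by 0.29 ± 0.08 and 0.25 ± 0.08, and PSME4 by 0.35 ± 0.12 and 0.46 ± 0.13, the last with other probe sets of PSME4 that fell. PSMG1 fell by 0.32 ± 0.09 with PD-98059 and by 0.27 ± 0.09 with U0126. PSMG3 fell by 0.40 ± 0.15 and PSMD9, a chaperone of the base, fell by 0.27 ± 0.11 with PD-98059. PSMB8 (0.09 ± 0.25 and 0.15 ± 0.27, dim), PSMB10 (0.03 ± 0.11 and -0.02 ± 0.12), PSMA3 (0.12 ± 0.10 and -0.01 ± 0.10), PSMD14 (0.01 ± 0.07 and 0.04 ± 0.08) and PSMF1 (0.03 ± 0.15 and -0.02 ± 0.16) did not pass with either.

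The RNA-quality index was higher with PD-98059 in 2D by 0.527 and with U0126 by 0.477 (exact two-sided permutation p = 0.0286 and 0.0571), and with it as a covariate 20 members rose with each, while PSME4 did not pass with either and PSMB5 not with PD-98059. The falls with PD-98059 were 1 without 2D HGF replicate 1 and 5 without PD-98059 replicate 4, where PSMB5 and PSME4 did not pass, and those with U0126 were 0 without U0126 replicate 1 and 2 without replicate 3, where PSMB6 did not pass. With PD-98059, PSMB5 also did not pass without 2D HGF replicate 4 or PD-98059 replicate 3. PSMG3 did not pass without 2D HGF replicate 1 or PD-98059 replicate 2 or 3, nor PSMD9 without any 1 array of 2D HGF or PD-98059 replicate 4.

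**Figure D5:**
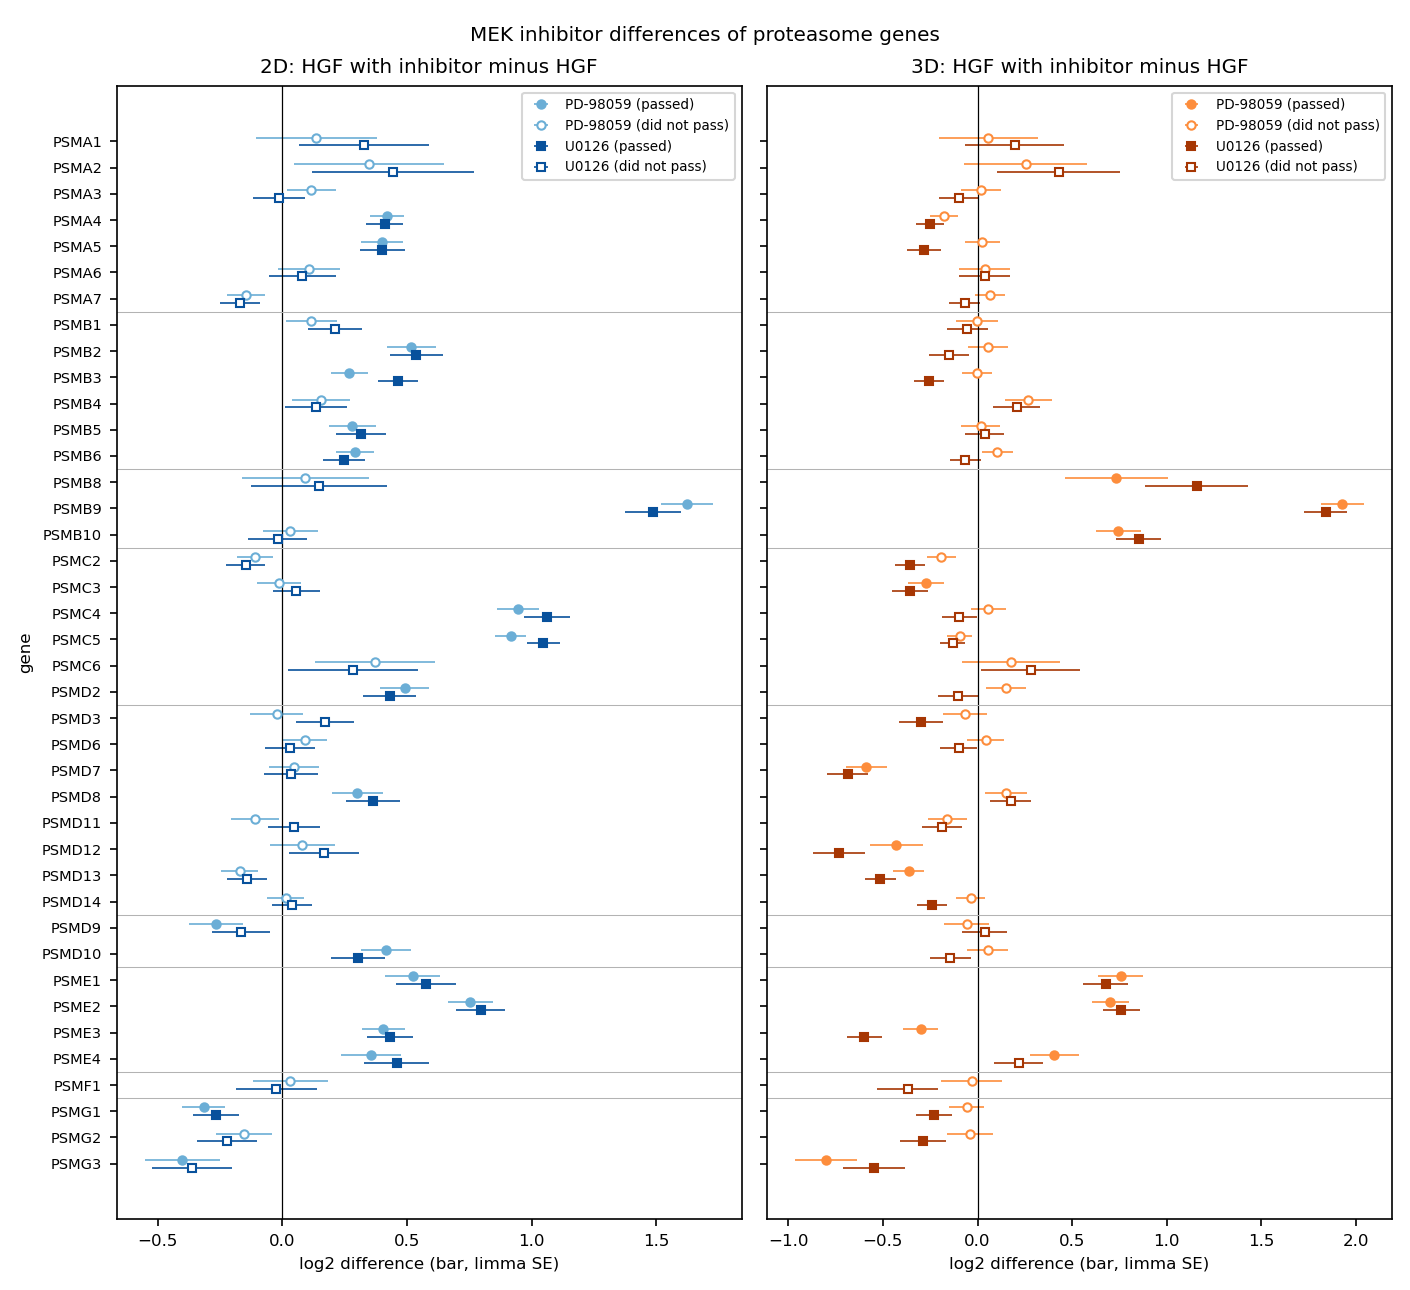
Log2 difference (x axis) of each of the 40 members (y axis, in blocks by their place in the complex) between HGF with an inhibitor and HGF alone in 2D (left) and 3D (right), with the limma SE as a bar and filled symbols for genes that passed an adjusted p of 0.05. PSMB9 has the largest difference in both cultures, 1.49 to 1.93, and PSMC4 and PSMC5 lie near 1 in 2D and near 0 in 3D.

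PD-98059 and U0126 differ in chemical structure, and their arrays, 1 pair of groups in each culture, are set side by side without a known match of dose. With 3 arrays each in 3D, 1 of the 40 members differed, where 2.99% of all tested probe sets (495) were higher with U0126 and 8.82% (1462) lower, against 740 and 1111 with quantile normalization. The core alpha subunit PSMA5 was lower with U0126, at -0.31 ± 0.10 (adjusted p = 0.0374), a call that was lost when any of 5 arrays was left out: replicate 1, 2 or 3 of PD-98059 and replicate 1 or 2 of U0126. The count of lower members was then 0, and without U0126 replicate 3 it was 2. In 2D none of the 40 differed, where 0.845% of all tested probe sets were higher with U0126 and 0.778% lower.

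The intervals still allow differences of some size between the inhibitors. The 95% interval of U0126 minus PD-98059 for PSMB9 ran from -0.34 to 0.16 in 3D and from -0.37 to 0.10 in 2D, and that for PSMB10 ran from -0.16 to 0.37 and from -0.30 to 0.19. For PSME3 it ran from -0.50 to -0.09 in 3D (adjusted p = 0.0506) and from -0.16 to 0.22 in 2D. The other genes of the fixed set had estimates from -0.34 (PSMF1) to 0.42 (PSMB8) in 3D and from -0.13 (PSMA3) to 0.12 (PSMC4) in 2D.

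Proteasome partners outside the symbol rule formed a list of 11 genes, of which 8 were tested, and POMP, the maturation factor of the core, had no probe set of its own. With HGF in 3D 3 of the 8 rose and 2 fell (median 0.20), and in 2D 2 rose and 3 fell (median -0.05). These shares are near those of all tested probe sets, 29.4% and 32.6% in 3D and 26.3% and 29.2% in 2D. AKIRIN2, which guides proteasomes into the nucleus, fell by 1.12 ± 0.08 in 3D and by 1.20 ± 0.08 in 2D. UCHL5, a deubiquitinase of the cap, rose by 0.84 ± 0.08 and 0.60 ± 0.08, and its receptor ADRM1 rose by 0.37 ± 0.11 in 3D. SEM1, a small lid subunit, rose by 0.29 ± 0.10 in 3D and fell by 0.24 ± 0.10 in 2D. With inhibitor beside HGF, AKIRIN2 rose in all 4 comparisons, by 0.62 to 1.13.

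Of the 7 listed genes that control proteasome transcription 4 were tested. NFE2L1, the factor that raises proteasome genes when proteolysis fails, fell by 1.17 ± 0.15 with HGF in 3D and by 0.50 ± 0.15 in 2D. DDI2, the protease that activates NFE2L1, rose by 1.58 ± 0.14 in 3D and had 0.16 ± 0.14 in 2D, where it did not pass. DDI2 then fell by 1.49 ± 0.15 with PD-98059 and by 1.56 ± 0.15 with U0126 in 3D. NFE2L2 fell by 0.70 ± 0.13 with HGF in 2D, and KEAP1, which holds NFE2L2 for degradation, rose by 0.41 ± 0.11 there. Of 15 tested genes of ubiquitin supply and substrate delivery, 8 rose and 4 fell with HGF in 3D, where 29.4% of all tested probe sets rose and 32.6% fell. In 2D 4 rose and 5 fell, near the shares of all tested probe sets, 26.3% and 29.2%. The ubiquitin-conjugating enzyme UBE2K rose by 1.17 ± 0.10 in 3D and fell by 0.27 ± 0.10 in 2D, and the unfolding ATPase VCP rose by 0.26 ± 0.08 in 3D and fell by 0.38 ± 0.08 in 2D.

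Genes of antigen processing beside the immunoproteasome were 12 in the list and 10 in the test. With HGF 6 of the 10 fell and 2 rose in each culture, where 32.6% of all tested probe sets fell in 3D and 29.2% in 2D, with medians of -0.64 in 3D and -0.43 in 2D. TAP1 and TAP2 form the transporter that carries proteasome peptides into the endoplasmic reticulum. TAP1 had a mean log2 level of 11.71 ± 0.11 (SD, n = 4) in 3D control, 9.53 ± 0.19 in 3D HGF, 10.39 ± 0.11 in 2D control and 9.49 ± 0.06 in 2D HGF (SD, n = 4 in each). TAP1 fell by 2.17 ± 0.10 in 3D and by 0.90 ± 0.10 in 2D, and TAP2 fell by 1.76 ± 0.10 and 1.24 ± 0.10. B2M, the light chain of MHC class I, fell by 0.71 ± 0.10 and 0.47 ± 0.10. ERAP1, which trims peptides, was lower with HGF by 1.90 ± 0.32 and 1.64 ± 0.32. Its means were 5.30 in 3D control and 5.16 in 2D control, and a dim 3.40 in 3D HGF and 3.52 in 2D HGF. With HGF alone its highest levels were 3.62 in 3D and 3.89 in 2D. ERAP1 thus passed the filter through other groups, so its falls are a description. It stands among the 6 genes that fell but supports no count.

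Of the interferon regulatory factors, IRF2 fell by 2.23 ± 0.13 with HGF in 3D and by 0.77 ± 0.13 in 2D. IRF1 fell by 0.57 ± 0.13 in 3D but rose by 0.36 ± 0.13 in 2D. With either inhibitor beside HGF 5 of the 10 genes rose in each culture: TAP1, TAP2, B2M, ERAP1 and IRF2. In 3D 2 fell with each, and in 2D 2 fell with PD-98059 and 1 with U0126, where 25.4% to 27.6% of all tested probe sets rose and 15.4% to 24.9% fell in these comparisons. ERAP1 had dim means of 3.40 in 3D and 3.52 in 2D with HGF alone, and of 4.58 with PD-98059 in 3D. It stands among the 5 genes that rose but supports no count. In untreated cells TAP1 was higher in 3D by 1.32 ± 0.10, TAP2 by 0.35 ± 0.10, B2M by 0.66 ± 0.10 and IRF1 by 0.42 ± 0.13, TAPBP was lower, and IRF2 (-0.21 ± 0.13) did not pass.

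A gene's probe sets did not always move together. Of the 40 members 24 had more than 1 tested probe set, and opposite calls within a gene were found for PSME4 with HGF in 3D and with both inhibitors in 2D and for PSMD2 in 3D against 2D control, with none in the other comparisons. A second, dimmer probe set of the ATPase PSMC6 (mean log2 level 7.82 against 11.96) fell by 1.54 ± 0.17 with HGF in 2D and rose by 1.72 ± 0.17 with PD-98059 and by 2.05 ± 0.19 with U0126 there. The brighter one, used for the counts, had -0.11 ± 0.24 with HGF in 2D and did not pass.

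The gene PSMC3IP, whose product binds PSMC3 but serves recombination in meiosis, changed more than most subunits. Its log2 levels were 6.62, 6.79, 6.22 and 7.26 in 2D control and 6.98, 7.07, 6.52 and 6.89 in 2D HGF, which overlap. In 3D they were 8.54, 8.29, 8.27 and 8.23 in control and 9.74, 9.64, 9.61 and 9.32 with HGF, without overlap. PSMC3IP rose by 1.24 ± 0.17 with HGF in 3D, was higher by 1.61 ± 0.17 in 3D control than in 2D control, and rose in 2D by 1.499 ± 0.17 with PD-98059 and by 1.17 ± 0.18 with U0126. PSME3IP1, named for binding PSME3, did not pass with HGF in either culture and was lower in 3D control than in 2D control, at -0.25 ± 0.10. It rose by 0.39 ± 0.11 with PD-98059 and by 0.41 ± 0.11 with U0126 in 3D.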

How the data were processed

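Total RNA was isolated with a Qiagen kit, amplified by in vitro transcription and hybridised to arrays, per the labels' protocols. The values are log2 levels per probe set as the authors deposited them. The tools named are GCRMA, MAS5, Partek 6.6 and Affymetrix Expression Console 1.1, per the submitters' processing notes, in roles and order not given there. No further normalization was made. Of 43035 probe sets, 111 are Affymetrix controls, and 16571 of the others reached log2 5 in at least 3 of 29 arrays and were tested. The number of arrays limits the precision.

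Genes were named from the platform annotation (29264 probe sets with 1 symbol, 439 with several, 13332 with none). All 40 members matched a RefSeq symbol (assembly UU_Cfam_GSD_1.0) and 36 the same gene identifier. Promoter motifs and sequences were not analysed here.

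The test was limma (version 3.58.1, R 4.3.3): a linear model with 1 mean for each of the 8 groups was fitted to all 29 arrays with lmFit, followed by eBayes with a trend and Benjamini-Hochberg adjustment over the 16571 probe sets within each of 10 comparisons (threshold 0.05, two-sided). The script was tested on simulated data. Values were given in each comparison for a fixed set of genes (PSMB5 to PSMB10, PSMA3, PSMC4, PSMD14, PSME1 to PSME4, PSMF1, PSMG1 and POMP) and for the 3 largest differences that passed in each direction. PSMC5 and some genes of the lists and other probe sets were added after their values were seen. The members and lists were chosen with earlier results of these data known. Alternatives were no filter, a filter at log2 6, eBayes without trend, the compared groups alone, quantile normalization, median centring, the replicate number as a block, array weights, averaging the probe sets of a gene and leaving out each array. Leaving out 3D HGF replicates 1 and 4 together and the RNA-quality covariate were added after the data were seen.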

Additional observations from a re-analysis of the deposited data

Results flagged for a closer look

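Single arrays stood away from the rest of their group for 4 genes, among 70 groups of 4 arrays examined in 14 genes, and chance gives about 1 in 20. PSMB9 in 3D HGF replicate 4 had a log2 level of 9.542, where the next array had 9.835. PSMA3 in 3D HGF replicate 4 had 14.228 against 14.563 for the next. PSMD14 in 2D control replicate 1 had 13.327 against 13.096, and PSMF1 in 2D HGF replicate 2 had 5.841 against 5.673.

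The difference by HGF differed between 3D and 2D, by the limma test of that difference, for 13 of the genes given in full, here as 3D minus 2D on the log2 scale. It was below 0 for PSMB8 (-2.72, where the filter fixed the direction), PSMB10 (-1.19), PSMB9 (-0.89), PSME1 (-0.38) and PSME2 (-0.31). It was above 0 for PSMD7 (1.47), PSME3 (1.40), PSMC5 (1.29), PSMC4 (1.15), PSMF1 (0.75), PSMB6 (0.57), PSMB5 (0.38) and PSMD14 (0.25).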

How the results depend on the processing

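The replicate numbers gave no steady sign of pairing: in 0 of 12 group pairs did all same-numbered arrays correlate above 0.1 in their deviations. Of 43 pairs of arrays 14 did, with r from -0.353 to 0.409. Arrays of different numbers were not compared, so this check cannot tell whether arrays were paired. With the replicate block, 24 members rose and 6 fell with HGF in 3D and 5 rose and 12 fell in 2D. The block left 4 members below 0 in the difference of the HGF effect and moved no count by over 1.5 times.

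Counts of members moved by over 1.5 times under other settings in these cases, where the cause was not tested. With HGF in 2D, 3 rose with the RNA-quality covariate. In the difference of the HGF effect, 3 were below 0 with no filter, without trend and with median centring. In 3D against 2D control, 0 were lower with the filter at log2 6, 2 with the compared groups alone and 3 with the mean of probe sets. With PD-98059 in 3D, 3 fell with the compared groups alone and 12 with centring, and in 2D 1 fell with no filter and 6 with centring. With U0126 in 3D, 8 rose with quantile normalization, 9 fell with it and 6 fell with the compared groups alone. With U0126 in 2D, 3 fell with the compared groups alone, 2 with quantile normalization, 5 with centring, 5 with array weights, 2 with the mean of probe sets and 3 with the covariate. Between the inhibitors in 3D, 0 were lower with no filter, without trend, with the compared groups alone and with quantile normalization, 2 with the filter at log2 6, 11 with array weights, 2 with the mean of probe sets and 3 with the covariate, and in 2D 1 was higher with quantile normalization.

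With each array left out, 19 to 25 rose and 6 to 7 fell with HGF in 3D, and 2 to 5 rose and 12 fell in 2D. In the difference 17 to 22 were above 0 and 3 to 5 below, and in 3D against 2D control 14 to 18 were higher and 1 to 2 lower. With PD-98059, 4 to 7 rose and 3 to 7 fell in 3D, and 13 to 16 rose and 1 to 5 fell in 2D. With U0126, 5 rose and 6 to 14 fell in 3D, and 14 to 17 rose and 0 to 2 fell in 2D. Between the inhibitors 0 were higher and 0 to 2 lower in 3D, and 0 differed in 2D.

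The named members here are the fixed set and the 3 largest differences that passed in each direction. Genes of the lists, PSMC3IP and PSME3IP1 were not summarised in this way. Of 2907 values of these members under all alternatives, 2748 kept their side of the threshold. Another 127 no longer passed, 28 passed anew and 4 turned while passing in at least 1 of the settings compared. Among the 2748, the sign of 104 changed without passing in either setting. The mean of probe sets turned PSME4 to 0.0155 for HGF in 3D, to -0.29 with PD-98059 in 2D and to -0.10 with U0126 in 2D, and quantile normalization turned PSMA3 with U0126 in 2D to 0.14. A dim level limits PSMB8 outside 3D control.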
